A study of Mus musculus with 6 samples.

Results

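Molecular chaperone mRNAs were followed between the non-polysomal (NP) and polysomal (P) fractions of oocytes from aged females (AF). The genes were taken by symbol alone from the deposited expression table: Hsp followed by a digit or by a, b, d, e or h, Dnaja, Dnajb or Dnajc followed by a number, and Cct2 to Cct8. This gave 83 of 25899 genes, of which 29 were Hsp genes, 45 were Dnaj genes and 9 were Cct genes. By their labels, all 6 libraries came from CD1 females of 58 weeks. The study's methods call the mice ICR and state another age. Females received 5 IU of pregnant mare serum gonadotropin 46 h before collection. Oocytes at the germinal vesicle stage were held in 100 µM IBMX, an inhibitor of meiotic resumption, denuded, and then cultured for 180 min without it. They were at nuclear envelope breakdown (NEBD) when lysed, after 10 min in cycloheximide at 0.1 mg/ml, which keeps ribosomes on the mRNA. Each lysate of 200 oocytes was run on a sucrose gradient, from which 10 fractions were taken and pooled into 1 NP and 1 P sample, with 3 libraries of each. The study describes NP as free RNA together with RNA on monosomes, so an mRNA in NP is not necessarily without a ribosome. Which gradient fractions entered each pool is not given in the sources used here, and no library was made from total RNA. The oocytes of 1 library were pooled, so differences between single oocytes cannot be seen, and libraries of young females were not analysed here.

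Chaperones bind unfolded or partly folded proteins and help them fold, assemble, cross membranes or be degraded. Hsp70 proteins (the Hspa genes) hold and release clients in a cycle of ATP hydrolysis, which the J proteins (the Dnaj genes) switch on through their J domain while bringing in the client. Hsp90 proteins take over late folding steps of kinases and steroid receptors, small heat shock proteins (the Hspb genes) hold clients without ATP, and the Cct genes encode subunits of the chaperonin TRiC, a double ring in which actin and tubulin fold. A fully grown oocyte is transcriptionally silent and lives on stored maternal mRNA, so the position of an mRNA on or off polysomes is a main level at which its protein synthesis is set.

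Levels are FPKM, fragments per kilobase of exon scaled to the mapped reads of the library. Genes can be compared within a library only as far as the whole-transcriptome amplification before sequencing kept their proportions, which was not tested. An FPKM is a share of the library and not an amount per oocyte, and in bulk RNA fewer oocytes holding an mRNA and less of it in each cannot be told apart. The deposited files hold no counts. Depth estimated from the steps between low values was 1237827, 18073406 and 12127185 reads in NP replicates 1, 2 and 3, and 163554, 1139305 and 1547605 in P replicates 1, 2 and 3. At these depths 3 reads on a transcript of 2 kb are worth 0.0830 to 1.21 FPKM in NP and 0.969 to 9.17 FPKM in P, so an mRNA listed at 0 in P, and above all in P replicate 1, may be present below that level. The FPKM of listed genes summed to between 5.97e5 and 6.33e5 in NP and between 2.46e5 and 3.94e5 in P. Lars2 and Gm15564 together took 0.167% to 0.3999% of that sum in NP and 5.05% to 9.81% in P, and their part in the ratios of P over NP, which are ratios of shares of these libraries, was not tested. Of 12 oocyte markers 11 were above 10 FPKM in NP and 11 in P. Of 12 granulosa and cumulus markers 7 were listed at 0 in all libraries, and the summed level of that list was 11.2 to 131 FPKM in NP and 2.28 to 16.5 FPKM in P. A mean above 10 FPKM was reached by 2 of them in NP and by 0 in P. The highest was Cyp19a1, at means of 44.6 FPKM in NP and 5.1 FPKM in P. Stromal markers were at 0 for 4 of 6 genes and blood markers for 3 of the 4 found.

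The chaperone mRNAs fell into a few abundant ones and a long tail. In NP, 5 of the 83 had a mean above 100 FPKM and 29 a mean above 10 FPKM, and in P the numbers were 3 and 22. The 26 members seen above 0 in all 6 libraries made up 31.3% of the families, against 17.5% of all genes. Those listed at 0 in all 6 numbered 13, or 15.7%, against 44.1% of all genes. They were Hspb2, Hspb3, Hspb7, Hspb8 and Hspb9 among the small heat shock proteins, the Hsp70-like Hspa12b, the J proteins Dnajb7, Dnajb8, Dnajb13, Dnajc12 and Dnajc25, and the chaperonin genes Cct6b and Cct8l1. Another 13 were above 0 in NP and at 0 in all P libraries, a share of 15.7% that is close to the 15.02% of all genes, and 0 showed the reverse, against 0.992% of all genes. All chaperone mRNAs together took 0.522% to 0.730% of the FPKM sum in NP and 0.278% to 0.529% in P.

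P was compared with NP by limma on log2(FPKM + 1), over the 10578 genes with a mean above 1 FPKM in either fraction. Adding 1 FPKM makes the log2 ratio of P over NP smaller in size for genes of a few FPKM. The test was possible for 56 members: 18 Hsp, 32 Dnaj and 6 Cct genes. Another 14 were above 0 but below that filter. The median ratio over all genes tested was −1.03, so a ratio near that value is the typical one in these libraries and the ratios below are read against it. Nothing in the labels says that replicates came from separate groups of animals, and p-values measure the spread between these libraries. With 3 libraries against 3, no exact permutation p for 1 gene can be smaller than 0.1.

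Of the 56 members, 1 was called lower in P at a Benjamini-Hochberg adjusted p under 0.1 by limma, the J protein mRNA Dnajb1. That is 1.79% of the members, next to 1.8% of all genes tested. None of the 56 was called higher, against 0.0189% of all genes, and 0 had an unadjusted p under 0.05 in that direction. In the lower direction 5 members had an unadjusted p under 0.05, namely Dnajb1, Dnajb9, Dnajb12, Dnajc11 and Cct5, or 8.93% of the members against 15.8% of all genes in either direction. With NP and P of one replicate number paired as a block, limma called 6.27% of all genes lower and 0.0473% higher, and of the members again Dnajb1 in the lower direction and 0 in the higher.

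Counted without a model, 10 of 56 members (17.9%) had all 3 P values below all 3 NP values, against 23.2% of all genes. They were Hspa8 and the J protein genes Dnajb1, Dnajb6, Dnajb9, Dnajb11, Dnajb12, Dnajc4, Dnajc5, Dnajc5b and Dnajc11. Dnajb9, Dnajc4 and Dnajc5b were listed at 0 in P replicate 1, where 3 reads would be worth 7.20, 14.8 and 14.6 FPKM. These levels exceed all their NP values, so that library cannot place P below NP for them. For Dnajb12, also at 0 there, 3 reads would be worth 5.44 FPKM, above its NP replicates 1 and 2. None of the members had all P above all NP, against 0.633% of all genes. After rescaling by median-of-ratios or to a common FPKM sum, 3 members had all P below all NP, against 11.7% and 12.1% of all genes, and 1, Hsp90b1, had all P above all NP, against 3.78% and 3.05%. P was below NP in each of the 3 replicate pairs for 17 members (30.4%), against 38.6% of all genes, and above it in each pair for 1 member, Hsp90b1, or 1.79% against 2.09% of all genes. Within the Dnaj genes 9 of 32 (28.1%) had all P below all NP.

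Among Hsp genes the median log2 ratio was −0.60, with 15 of 18 ratios negative and 3 positive. The Dnaj genes had a median of −1.30, with 24 negative and 8 positive, and the Cct genes a median of −0.93, with all 6 negative. Against the median of all genes in the same replicate pair, the Hsp median lay higher in 3 of 3 pairs, by 0.98, 0.068 and 0.33. The Dnaj median differed from it by −0.66, 0.049 and −0.11, and the Cct median by 0.052, −0.15 and 0.35. Over 21 settings, the reported one included, the difference from the median of all genes ran from 0.17 to 0.96 for Hsp, from −0.49 to −0.012 for Dnaj and from −0.59 to 0.52 for Cct. The Hsp median itself turned positive under quantile normalization (0.435), with a common FPKM sum (0.105) and without NP replicate 2 (0.021). These medians carry no test. Over all 56 members the median was −1.06 and 80.4% of ratios were negative, against 80.2% of all genes. The plot of log2 ratios shows 1 call, Dnajb1, and standard errors that for most members reach across the typical ratio.

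**Figure D1:**
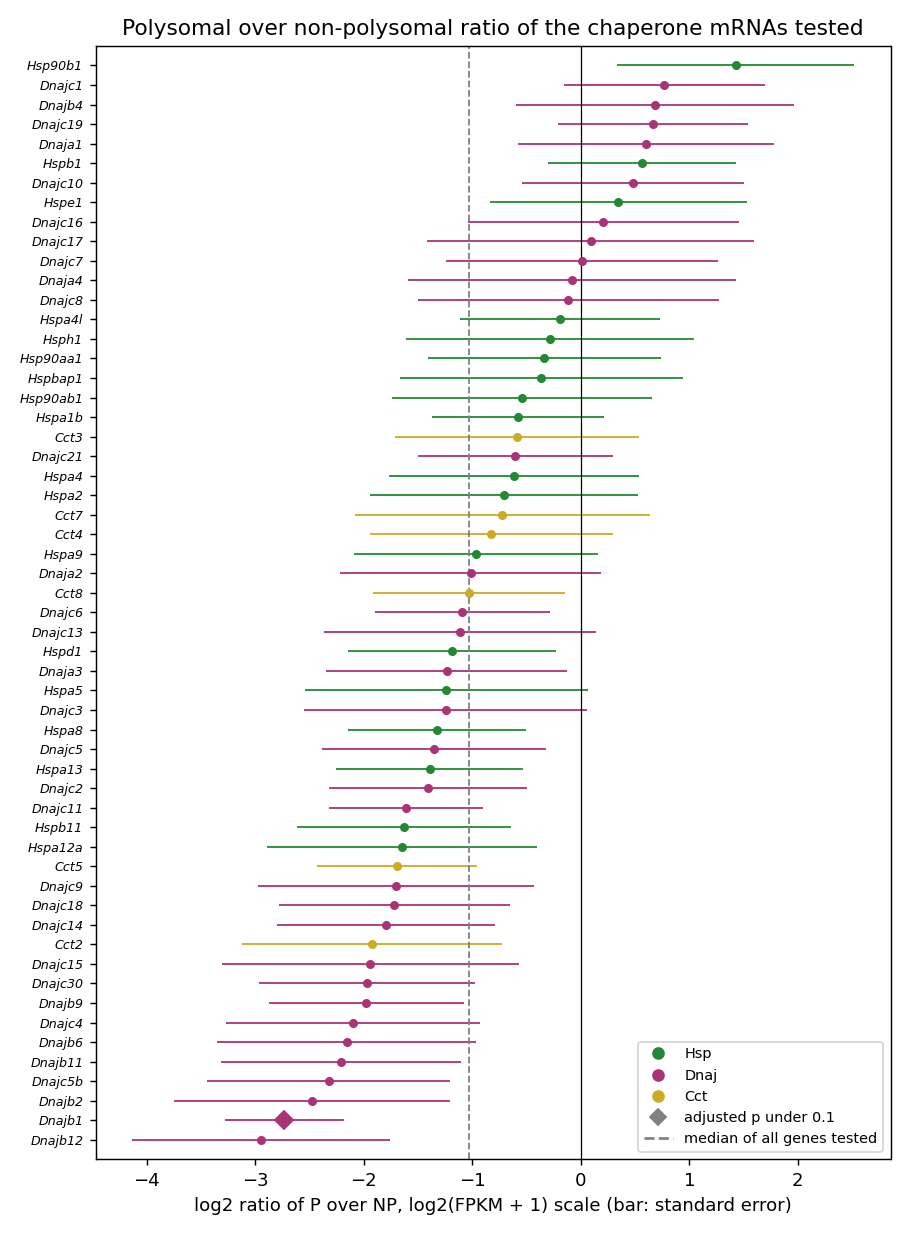
Log2 ratio of P over NP on the log2(FPKM + 1) scale (horizontal axis) for each of the 56 members tested, coloured by family, with the standard error as a bar and the median of all genes tested, −1.03, as a dashed line. The diamond marks Dnajb1, the 1 member with an adjusted p under 0.1, at −2.73, and 45 of 56 ratios lie below 0.

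Dnajb1 (chromosome 8, 83608175 to 83611902, plus strand, GRCm38), also known as Hsp40, is a main partner of cytosolic Hsp70 among the class B J proteins. Its mRNA was at 1468, 1821 and 1896 FPKM in NP replicates 1, 2 and 3, and at 221, 223 and 345 FPKM in P replicates 1, 2 and 3. The fractions did not overlap, and the P values rested on an estimated 116, 815 and 1713 reads. The means were 1728 ± 228 and 263 ± 71.1 FPKM (SD, n = 3), so NP was 6.56-fold higher. The log2 ratio was −2.73 with an SE of 0.55, at an adjusted p of 0.0221 by limma, and it was lower in P in 3 of 3 pairs. Set against the typical ratio, it lay 1.70 further down (−1.70 on the log2 scale). That typical ratio was −1.73 at a pseudocount of 0.1 and −1.30 for genes with a mean above 5 FPKM. The distance moves with it. The call depended on the setting: 0 members were called after any of 3 rescalings of the libraries, with no filter on low genes, with no trend of the spread, or without NP replicate 1, 2 or 3. With the filter recomputed, Dnajb1 was still called without P replicate 1, 2 or 3 (limma, adjusted p of 0.0345, 0.0471 and 0.0105). With the set of genes tested held fixed, it was called without P replicate 3 (0.0959) and not without P replicate 1 or 2 (0.174 and 0.184). The log2 ratio of Dnajb1 ranged from −2.94 to −1.73 over all settings tried.

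Dnajb1 was the most abundant chaperone mRNA in both fractions by its mean, ranking 30 among all genes in NP and 191 in P. It supplied 34.0% to 60.9% of the summed chaperone FPKM in NP and 16.5% to 31.5% in P. Of the genes called lower in P it ranked 16 by its level in NP. Even in P its level exceeded the NP level of each Hsp gene. Of the 56 members searched, 15 had another gene with a transcript matching at 95% identity or more over 200 bases. Dnajb1 had none, and no gene on the opposite strand shared its exons. The latter matters because the strand setting of the authors' counting is not given in the sources used here, so reads of overlapping genes cannot be told apart.

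The 250 bases upstream of the Dnajb1 start are shown because it is the member that passed the test. They are RefSeq sequence of GRCm38.p6, chr8:83607925-83608174, plus strand, and the capitals mark the single match to ATTGG, the CCAAT box read on the other strand. Of these bases 69.6% were G or C. A CCAAT or ATTGG match was present in the windows of 37.5% of all genes and of 26 of the 68 members with a promoter (38.2%), so it does not set Dnajb1 apart.
Dnajb1: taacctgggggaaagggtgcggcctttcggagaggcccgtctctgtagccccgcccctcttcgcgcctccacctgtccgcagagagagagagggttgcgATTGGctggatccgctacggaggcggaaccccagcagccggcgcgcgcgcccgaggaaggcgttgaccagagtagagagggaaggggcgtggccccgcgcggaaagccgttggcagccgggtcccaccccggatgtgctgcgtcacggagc

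Hspa8 (chromosome 9, 40800984 to 40805200, plus strand) encodes Hsc70, the constitutive cytosolic Hsp70 with which Dnajb1 works. It was at 125, 145 and 138 FPKM in NP and at 76.4, 65.8 and 30.3 FPKM in P. The fractions did not overlap, but the log2 ratio of −1.33 (SE 0.82) was near the typical one and did not pass the test (limma, adjusted p = 0.418). Within each library Dnajb1 mRNA exceeded Hspa8 mRNA, by 11.7, 12.6 and 13.8 times in NP and by 2.90, 3.40 and 11.4 times in P. The gap was thus narrower in P replicates 1 and 2, while P replicate 3 was near the NP libraries. Hspa8 has 7 processed pseudogenes matching it at 95% identity or more, none of which is among the genes analysed, so its level is uncertain where the authors' counting split or dropped shared reads.

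The stress-induced genes of the same class were at low levels. Hspa1a and Hspa1b, the inducible Hsp70 pair whose transcripts are 99.2% identical over 2201 bases and whose reads can be split between them, summed to 0.547, 4.10 and 0.229 FPKM in NP. In P they summed to 1.22 FPKM in replicate 2 and were listed at 0 in replicates 1 and 3. Hspa8 was 35.4 to 601 times their sum in NP. Hspa2, the Hsp70 known from spermatocytes, was at 4.17, 10.8 and 0 FPKM in NP and at 7.27, 0.695 and 0 FPKM in P.

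Hsp110 proteins act as nucleotide exchange factors that release ADP from Hsp70. Hsph1 (chromosome 5, 149614287 to 149636376, minus strand) was at 1.61, 7.58 and 7.06 FPKM in NP and at 0, 3.48 and 21.4 FPKM in P, and its log2 ratio was −0.28 (SE 1.33; adjusted p = 0.928 by limma). Hspa4 and Hspa4l, the other tested members of this class, had log2 ratios of −0.62 and −0.19. Values of all these genes overlapped between the fractions. Summed over the 9 cytosolic Hsp70 and Hsp110 genes, the level was 139, 174 and 146 FPKM in NP and 84.7, 83.8 and 52.2 FPKM in P, mostly from Hspa8.

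The cytosolic Hsp90 genes varied widely between the replicates of each fraction. Hsp90ab1 (chromosome 17, 45567775 to 45573271, minus strand), the constitutive form, was at 28.6, 86.6 and 15.6 FPKM in NP and at 2.04, 47.6 and 93.0 FPKM in P. Hsp90aa1 (chromosome 12, 110690605 to 110702728, minus strand), the inducible form, was at 33.5, 37.4 and 7.61 FPKM in NP and at 23.3, 19.6 and 10.3 FPKM in P. For both the ranges of the fractions overlapped, with log2 ratios of −0.54 (SE 1.20) and −0.34 (SE 1.07) and adjusted p of 0.827 and 0.887 by limma. The sign of both turned positive in each of the 3 rescalings. Which of them led also changed with the library, the ratio of Hsp90ab1 to Hsp90aa1 being 0.852 to 2.31 in NP and 0.0874 to 8.99 in P. The lowest of these rests on 0.998 of an estimated read of Hsp90ab1 in P replicate 1, and Hsp90aa1 has 3 near-identical pseudogenes, matching over up to 2255 bases, with which its reads can be shared.

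**Figure D2:**
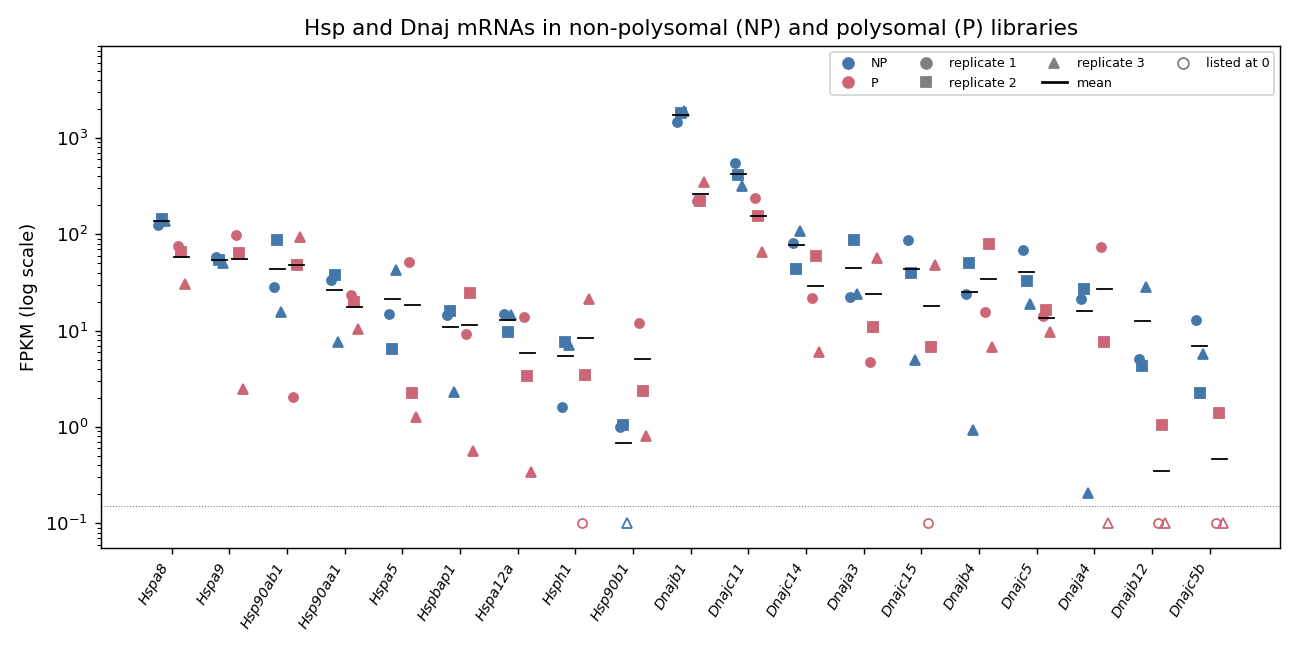
FPKM (vertical axis, log scale) of the Hsp and Dnaj genes chosen by level or ratio, with NP libraries in blue, P libraries in red, a symbol for each replicate and a bar for the mean; open symbols below the dotted line are libraries listed at 0. Dnajb1 stands at 1468 to 1896 FPKM in NP and 221 to 345 FPKM in P, while the NP and P symbols of Hsp90ab1, Hsp90aa1, Hsp90b1 and Hspa5 overlap.

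In the endoplasmic reticulum, Hspa5 encodes BiP, the Hsp70 of the lumen, and Hsp90b1 encodes Grp94, its Hsp90. Hspa5 (chromosome 2, 34771970 to 34776531, plus strand) stood at 14.9, 6.51 and 42.2 FPKM in NP and at 52.1, 2.24 and 1.29 FPKM in P. Hsp90b1 (chromosome 10, 86690209 to 86705509, minus strand) was at 1.002, 1.06 and 0 FPKM in NP and at 12.1, 2.39 and 0.800 FPKM in P. Hsp90b1 was the 1 member higher in P in all 3 pairs, and its log2 ratio of 1.43 (SE 1.09) was the highest of the 56, but its fractions overlapped and it did not pass the test (limma, adjusted p = 0.498).

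Dnajb11, also called ERdj3, binds unfolded clients of BiP, and its mRNA was at 24.5, 40.01 and 38.7 FPKM in NP and at 1.89, 16.0 and 7.58 FPKM in P. Dnajb9, or ERdj4, was at 5.20, 2.43 and 1.86 FPKM in NP and listed at 0 in all P libraries, where 3 reads would be worth 7.2, 1.03 and 0.76 FPKM. The value of Dnajb11 in P replicate 1 is 0.998 of an estimated read. Neither gene overlapped between the fractions, and neither passed the test, with log2 ratios of −2.21 and −1.97 and adjusted p of 0.335 and 0.291 by limma. Dnajc1 and Dnajc10, other J proteins of this compartment, had ratios of 0.77 (SE 0.93) and 0.48 (SE 1.02) from means of at most 2.62 FPKM, and neither passed the test (limma, adjusted p of 0.655 and 0.821). Dnajc3, which also inhibits the kinase PERK, had a ratio of −1.24. Of the 8 genes of this compartment, 5 had negative and 3 had positive ratios, and their summed level was 57.4, 72.9 and 102 FPKM in NP and 88.4, 35.6 and 9.83 FPKM in P.

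Among mitochondrial members, Dnajc11 (chromosome 4, 151933691 to 151982137, plus strand) was the second most abundant Dnaj mRNA, and its protein is part of the machinery that shapes the cristae of the inner membrane. It was at 556, 408 and 314 FPKM in NP and at 239.5, 156 and 65.9 FPKM in P. The fractions did not overlap, with means of 426 ± 122 and 154 ± 86.8 FPKM (SD, n = 3), but the log2 ratio of −1.61 (SE 0.71) did not pass the test (limma, adjusted p = 0.282). Hspa9, the mitochondrial Hsp70 mortalin, was tightly reproduced in NP at 57.9, 53.9 and 50.5 FPKM. In P it was at 99.4, 63.3 and 2.46 FPKM, higher than NP in replicates 1 and 2 and far lower in replicate 3, and its log2 ratio of −0.97 (SE 1.12) had an adjusted p of 0.641 by limma. Without P replicate 3 that ratio was 0.55.

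The import and folding partners of Hspa9 also varied between replicates. Dnaja3, also called Tid1, was at 22.3, 86.6 and 23.8 FPKM in NP and at 4.68, 10.97 and 56.1 FPKM in P. Dnajc15, a relative of the import motor subunit Pam18, was at 87.3, 39.6 and 4.96 FPKM in NP and at 0, 6.76 and 47.8 FPKM in P. In both, P replicate 3 was the highest P library, the reverse of Hspa9 and Dnajc11, in which it was the lowest. The mitochondrial chaperonin genes Hspd1 (Hsp60) and Hspe1 (Hsp10), which pair in 1 folding chamber, were at means of 3.91 and 2.26 FPKM in NP and 0.221 and 3.57 FPKM in P. Their log2 ratios were −1.18 (SE 0.96) and 0.35 (SE 1.18), with neither passing the test at adjusted p of 0.513 and 0.894 by limma.

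Among J proteins of class A and class B in the cytosol, nucleus and on membranes, Dnajb1 supplied most of the level, and 6 of the 8 log2 ratios tested, its own included, were negative and 2 positive. Dnajb4, a close relative of Dnajb1, was at 23.8, 50.6 and 0.935 FPKM in NP and at 15.6, 79.7 and 6.73 FPKM in P, with a log2 ratio of 0.69 (SE 1.28). Dnaja4 was at 21.2, 27.0 and 0.207 FPKM in NP and at 73.1, 7.57 and 0 FPKM in P, and 44.1% of its exon bases also belong to Wdr61 on the opposite strand. Dnajb6, known for holding aggregation-prone proteins, was at 8.76, 30.4 and 15.8 FPKM in NP and at 1.07, 3.98 and 4.63 FPKM in P, with no overlap and a log2 ratio of −2.16 (SE 1.19; adjusted p = 0.380 by limma). It has 7 near-identical processed pseudogenes, matching over up to 732 bases, with which its reads can be shared.

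Dnajb12, a J protein anchored in the endoplasmic reticulum membrane that faces the cytosol, had the lowest ratio of all 56 members. It was at 5.04, 4.35 and 28.1 FPKM in NP and at 0, 1.04 and 0 FPKM in P, the latter from an estimated 3.99 reads. Its log2 ratio was −2.95 with an SE of 1.19, more than that of Dnajb1 (SE 0.55), and it did not pass the test (limma, adjusted p = 0.238). The ubiquitous farnesylated J proteins Dnaja1 and Dnaja2 had ratios of 0.60 and −1.02, and Dnajb2, which carries ubiquitin-interacting motifs, had −2.48, each with overlapping fractions.

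The class C J proteins are a mixed class with specialised tasks. Dnajc5, cysteine string protein, which with Hspa8 keeps the exocytosis machinery folded, was at 68.8, 32.9 and 19.1 FPKM in NP and at 14.0, 16.5 and 9.75 FPKM in P. Its testis-type relative Dnajc5b was at 12.8, 2.24 and 5.70 FPKM in NP and at 0, 1.39 and 0 FPKM in P. Both were without overlap, at log2 ratios of −1.36 (SE 1.03) and −2.32 (SE 1.12), and neither passed the test at adjusted p of 0.494 and 0.317 by limma. For Dnajc5b, 3 reads in P replicate 1 would be worth 14.6 FPKM, above each NP value, so its 0 there cannot separate the fractions. Dnajc6, auxilin, which uncoats clathrin vesicles, and Dnajc13, an endosomal J protein, had ratios of −1.09 and −1.11. Dnajc14, a membrane J protein, was at 80.6, 43.5 and 107 FPKM in NP and at 21.7, 58.8 and 5.95 FPKM in P, with a ratio of −1.79 (SE 1.01; adjusted p = 0.384 by limma). It shares 16.99% of its exon bases with Ormdl2 on the opposite strand.

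Of the small heat shock proteins only Hspb1 (Hsp25) reached the test, through 5.92 FPKM in P replicate 1, which is 0.998 of an estimated read. It was listed at 0 in the other P libraries and at 0, 0.536 and 0.3998 FPKM in NP. Hspb6 was at 0.0961 FPKM in NP replicate 2 alone. The rule on symbols also took Hspb11, an intraflagellar transport protein also known as Ift25, at means of 4.30 FPKM in NP and 0.208 FPKM in P. Hspbap1, a partner of Hspb1, was at 14.4, 16.1 and 2.30 FPKM in NP and at 9.31, 24.4 and 0.562 FPKM in P. Hspa12a, a distant relative of Hsp70, was lower in P in 3 of 3 pairs, at 14.9, 9.70 and 14.5 FPKM against 13.8, 3.36 and 0.338 FPKM, with a log2 ratio of −1.64 (SE 1.24; adjusted p = 0.492 by limma).

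**Figure D3:**
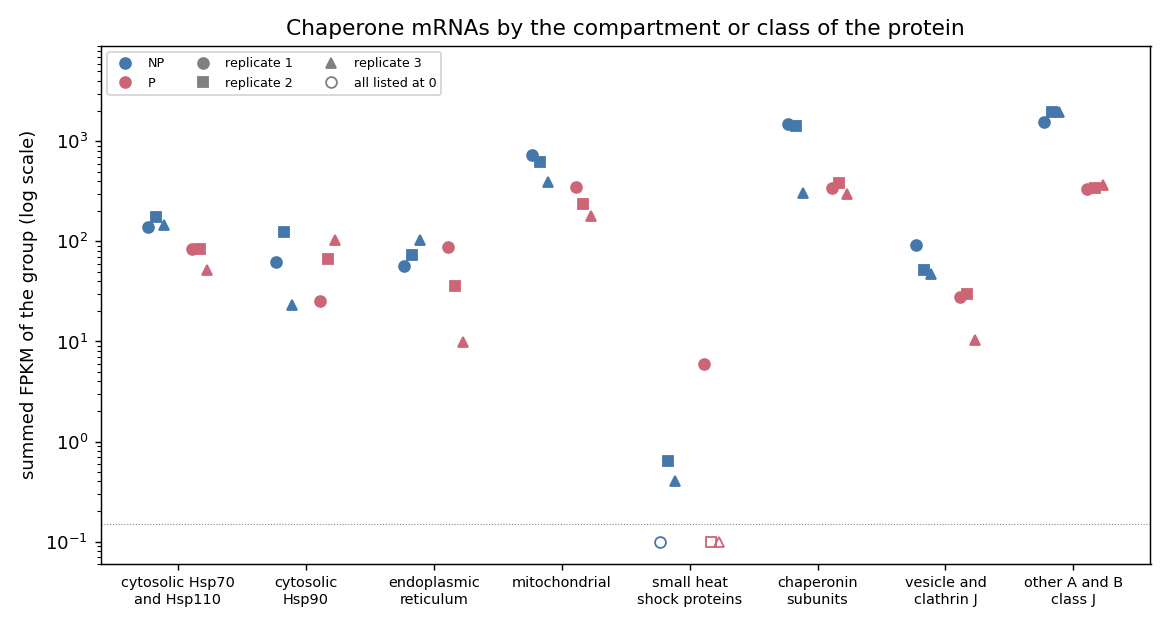
Summed FPKM (vertical axis, log scale) of the members grouped by the compartment or class of their protein, with NP libraries in blue, P libraries in red and a symbol for each replicate; open symbols are groups listed at 0. The A and B class J proteins, led by Dnajb1, stand at 1575 to 1983 FPKM in NP and 332 to 364 FPKM in P, and the endoplasmic reticulum and Hsp90 groups overlap between the fractions.

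The roles were grouped after the values had been seen and their sums carry no test. A and B class J proteins summed to 1575, 1983 and 1954 FPKM in NP and to 332, 346 and 364 FPKM in P. Vesicle and clathrin J proteins summed to 92.8, 52.1 and 47.7 FPKM in NP and to 27.5, 29.7 and 10.3 FPKM in P. The sums of both groups were without overlap, as were those of the cytosolic Hsp70 and mitochondrial groups, and the FPKM sum of all listed genes was without overlap in the same direction. Mitochondrial members summed to 730.0, 615.5 and 395 FPKM in NP and to 351, 239 and 180 FPKM in P, of which Dnajc11 was the largest.

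TRiC is built of 8 different subunits, each present once in each ring. The listed levels of their mRNAs were far from equal. Cct5 (chromosome 15, 31590800 to 31601847, minus strand) was at 1213, 1101 and 177 FPKM in NP and at 115, 243 and 248 FPKM in P. It ranked first of the 8 subunit mRNAs, Tcp1 included, in 6 of 6 libraries, with 32.7% to 79.1% of their sum. The lead over the next subunit was 9.62, 11.1 and 1.83 times in NP and 1.02, 3.91 and 9.63 times in P, so in P replicate 1 Cct5 and Cct8 could not be ranked apart. At the other end, Cct6a was at 0.795 FPKM in NP replicate 2 and listed at 0 elsewhere, as was Cct4 in P replicates 1 and 3. For Cct6a, 3 reads would be worth 0.67 FPKM in NP replicate 1 and 0.068 FPKM in NP replicate 3. The filters of the authors' counting are not known. A listed 0 is not read as absence, and its cause was not tested. Cct6a shares 12.5% of its exon bases with Psph on the opposite strand.

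Cct5 ranked 97 among all genes in NP and 267 in P, which placed it beside Dnajb1 and Dnajc11 as the 3 members with a mean above 100 FPKM in P. NP replicate 3 stood far below the other NP libraries and within the range of the P libraries. The log2 ratio was −1.69 (SE 0.74) and did not pass the test (limma, adjusted p = 0.281). No transcript matched Cct5 at 95% identity or more over 200 bases, and no opposite-strand gene shared its exons.

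The other subunits were lower. Cct8 varied little in NP and more in P, at 126, 96.0 and 96.7 FPKM in NP and at 113, 62.1 and 18.8 FPKM in P. Cct2 was at 37.9, 99.4 and 24.7 FPKM in NP and at 24.9, 42.0 and 0.658 FPKM in P. Both were lower in P in 3 of 3 pairs, with log2 ratios of −1.03 (SE 0.88) and −1.92 (SE 1.20), and with overlapping ranges. The adjusted p was 0.530 for Cct8 and 0.424 for Cct2 by limma, and 6.22% of the Cct8 exon bases belong also to Usp16 on the opposite strand.

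Cct3 was at 82.2, 60.7 and 4.69 FPKM in NP and at 11.7, 24.5 and 25.7 FPKM in P. Cct7 was at 31.0, 66.2 and 1.95 FPKM in NP and at 79.7, 3.22 and 3.16 FPKM in P. Tcp1, the alpha subunit, which the symbol rule leaves out, was at 41.4, 44.2 and 6.70 FPKM in NP and at 8.495, 30.8 and 17.96 FPKM in P. In all 3, as in Cct5, NP replicate 3 was the lowest NP library, and their log2 ratios of −0.58, −0.72 and −0.45 turned positive in each of the 3 rescalings. This was not particular to the chaperonin genes. Over all genes tested the median was 3.8 FPKM in NP replicate 3, against 10.3 and 10.6 FPKM in NP replicates 1 and 2. Cct4 was at 2.69, 6.47 and 0.373 FPKM in NP and at 0, 5.84 and 0 FPKM in P, far below Cct5 and Cct8. Summed over the 6 tested Cct genes, NP replicates 1 and 2 held 1493 and 1429 FPKM, NP replicate 3 held 306 FPKM, and the P libraries held 344, 381 and 296 FPKM.

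**Figure D4:**
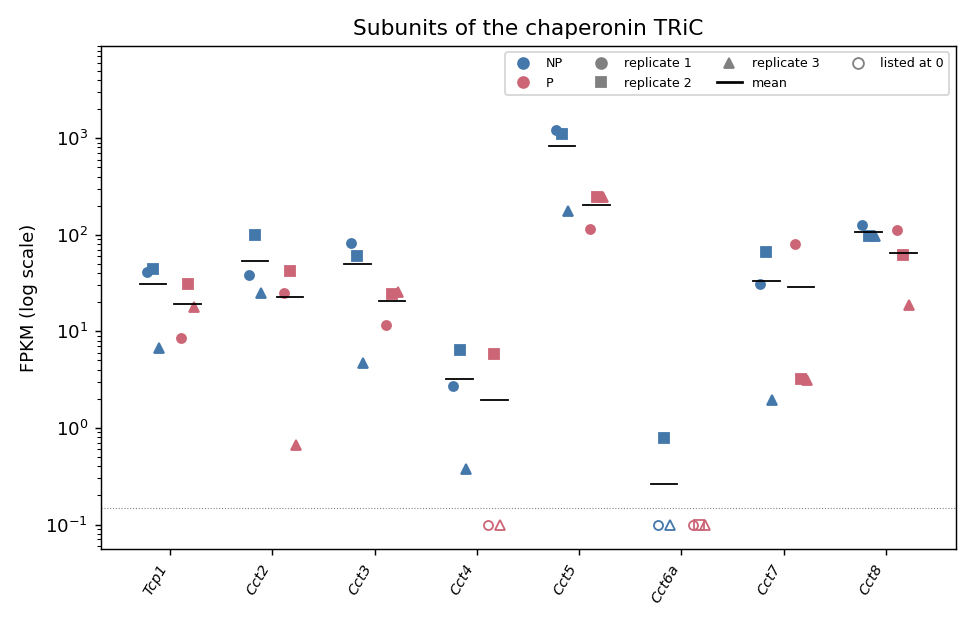
FPKM (vertical axis, log scale) of the 8 chaperonin subunit mRNAs, with NP libraries in blue, P libraries in red, a symbol for each replicate and a bar for the mean; open symbols below the dotted line are libraries listed at 0. Cct5 has the highest value in each library, at 115 to 1213 FPKM, with Cct8 level with it in P replicate 1, Cct6a is the lowest or tied with Cct4 at 0, and NP replicate 3 lies below the other NP libraries for each subunit except Cct6a and Cct8.

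The heat shock factor Hsf1 binds repeats of GAA in alternating orientation and, as background, is a maternal factor needed in oocytes. RefSeq windows of 300 bases around annotated starts (GRCm38.p6) were matched to 68 of the 83 members and searched on both strands for GAANNTTCNNGAA or TTCNNGAANNTTC, forms that can overlap in a longer run. A match was present for 4 members, or 5.88%, against 0.662% of 27025 genes with a window. The 4 were 3 Hsp genes and 1 Dnaj gene, and none had a mean above 100 FPKM in NP. They are shown with the element in capitals, at chr5:29735847-29735869 (plus strand) for Dnajb6, chr1:55088054-55088081 for Hspd1 (minus strand) and Hspe1 (plus strand), and chr5:149636283-149636305 (minus strand) for Hsph1.
Dnajb6: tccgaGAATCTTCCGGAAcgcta
Hspd1: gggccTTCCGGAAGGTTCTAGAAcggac
Hspe1: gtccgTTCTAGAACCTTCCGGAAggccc
Hsph1: gcagaTTCTGGAAAGTTCtcctc
Hspd1 and Hspe1 stand head to head, overlap by 112 exon bases and share 1 element, read from either strand. The windows of Dnajb1 and Cct5 held no match to these letters, and the 4 members with a match had means of 2.26 to 18.3 FPKM in NP. A match is a description of letters, not a site.

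The wider chaperone network was covered by a list of 50 genes outside the symbol rule, of which 49 were in the table and 42 could be tested. None of them passed the test in either direction (limma), 5 (11.9%) had an unadjusted p under 0.05, against 15.8% of all genes, and their median log2 ratio was −0.87, with 31 negative and 11 positive. With the replicate block 2 (4.76%) passed, against 6.27% of all genes in the lower direction: Cdc37, which brings kinases to Hsp90, at 31.2, 21.5 and 128 FPKM in NP and 0, 7.13 and 0.788 FPKM in P, and Fkbp4, a co-chaperone of steroid receptors, at 16.5, 9.83 and 20.8 FPKM in NP and 0, 2.51 and 0 FPKM in P. Their adjusted p by limma was 0.0412 and 0.0888 with the block and 0.113 and 0.188 without it. Both were named after their values had been seen.

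The most abundant genes of that list were spread across compartments. P4hb, a protein disulfide isomerase of the endoplasmic reticulum, was at 385, 499 and 577 FPKM in NP and at 275, 105 and 176 FPKM in P. Its fractions did not overlap, with a log2 ratio of −1.48 (SE 0.66; adjusted p = 0.289 by limma). Trap1, the mitochondrial Hsp90, was at 327, 348 and 16.5 FPKM in NP and at 64.1, 132 and 0.251 FPKM in P. Stub1, also called CHIP, a ubiquitin ligase that acts on chaperone clients, was at 231, 171 and 124 FPKM in NP and at 168, 16.8 and 131 FPKM in P. Lonp1, the mitochondrial protease, was at 338, 183 and 12.9 FPKM in NP and at 262, 40.8 and 209 FPKM in P, and Cdc37l1, a relative of Cdc37, reached 913 FPKM in P replicate 3 alone, against 4.85 and 24.7 FPKM in the other P libraries. Hsf1 itself was lower in P in 3 of 3 pairs, at 42.8, 33.9 and 62.7 FPKM in NP and at 24.2, 7.38 and 36.8 FPKM in P, with a log2 ratio of −1.20 (SE 1.003; adjusted p = 0.521 by limma).

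The spread between replicates was wide. The median SD of log2(FPKM + 1) over the members tested was 1.19 in NP and 1.29 in P, against 1.07 and 1.14 for all genes tested. In 18 of 56 members (32.1%) a single P library held more than 90% of the summed P level, against 27.7% of all genes. Dnajb1, Dnajc11, Cct5 and Hspa8 were seen above 30 FPKM in each of the 6 libraries.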

How the data were processed

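The 6 libraries are 3 NP and 3 P pools of AF oocytes. After rRNA removal the RNA was reverse transcribed, amplified as whole transcriptomes and sequenced. Per the labels and the methods, the authors trimmed with Trim Galore 0.4.1 and aligned to GRCm38 with HISAT2 2.0.5. The deposited FPKM are theirs, computed per gene in Seqmonk with an annotation, a strand setting and filters not given in the sources used here. Deposited means of each fraction were not used.

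The table holds 25965 rows with 58 duplicated symbols, for which the highest mean was kept. Depth was estimated as the step that makes most low FPKM whole reads (58.2% to 65.7% per library within 0.02 reads) at exon lengths of GENCODE M21, found for 87.1% of genes and all 83 members, so it is approximate. The test of P against NP was limma 3.58.1 (R 4.3.3), run on log2(FPKM + 1) over genes with a mean above 1 FPKM in either fraction, with a trend of the spread, two-sided, Benjamini-Hochberg adjustment and a threshold of 0.1. The script was tested on simulated data. Transcripts were compared with BLAST 2.17.0, and summaries and plots were made in Python 3.11.15.

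NP and P are pools made from the fractions of each lysate, and libraries of one number are therefore treated as one gradient, although no source says in words that the numbers match. Their deviations from the group means correlated at 0.063, 0.099 and 0.116, and those of other pairs at −0.089 to 0.021. The comparison was made without this block, which was an alternative, beside other pseudocounts, filters, scalings, no trend, leaving out each library, and a threshold of 0.05.

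Genes named are the Cct subunits and Tcp1, members past the threshold, the 8 Hsp and 8 Dnaj genes with the highest mean, and the 5 most abundant of the co-chaperone list. Within Hsp and within Dnaj, up to 3 in each direction were also named, with the largest ratio among those of one direction in 3 of 3 pairs. Others are named by role and were picked with their values known. The members, the lists and the roles were chosen with earlier results of these data known.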

Additional observations from a re-analysis of the deposited data

How the results depend on the processing

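Depth limits P replicate 1 most. At its 163554 estimated reads, mRNAs of a few FPKM rest on 1 or a few reads or are listed at 0. NP replicate 1, at 1237827 reads, lay between P replicates 2 and 3, at 1139305 and 1547605. No member was called higher in P under any setting. Members called lower, 1 as reported, were 0 with no filter, with no trend, and under median-of-ratios scaling, quantile normalization and a common FPKM sum, and 0 to 1 with a library left out. The adjusted p of Dnajb1 (limma) was between 0.00937, with the replicate block, and 0.614. The block changed no call of a member, and moved the calls over all genes from 190 to 663 lower and from 2 to 5 higher. Over all genes, 67 were lower at a pseudocount of 0.1, 0 with no filter, 15 with no trend, and 1, 2 and 5 under the rescalings. Without an NP library they were 1 to 10, and without a P library 154 to 328, the highest without P replicate 3; with the genes tested held fixed they were 0 without any NP library and 0 to 53 without a P library. In the co-chaperone list the block gave 2 calls and leaving out a library 0 to 1.

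The rescalings moved the median ratio of all genes from −1.03 to −0.37 (median-of-ratios), 0.0027 (quantile) and −0.43 (common sum), and a pseudocount of 0.1 to −1.73. The Hsp median moved to −0.043, 0.435 and 0.105 in the rescalings, to −1.14 at a pseudocount of 0.1, and between −1.02 and 0.036 with a library left out, the highest without NP replicate 2 (0.021 with the filter recomputed). The Dnaj median moved to −0.61 (median-of-ratios), −0.34 (quantile) and −0.48 (common sum), and was −1.58 to −1.08 with a library left out. The Cct median moved to −0.15 (median-of-ratios), 0.12 (quantile) and −0.21 (common sum), and was −1.92 to −0.42 with a library left out, the lowest without NP replicate 3. Members with all P below all NP (10 as reported) numbered 3 under median-of-ratios (5.56%, against 11.7% of all genes) and 3 under a common sum (5.26% against 12.1%), with 1 the other way in each, Hsp90b1 (1.85% against 3.78%, and 1.75% against 3.05%).

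Of 31 named genes over 22 settings, 600 values kept direction and call, 13 lost the call (all Dnajb1) and 68 changed sign, none of them a called gene. Under median-of-ratios scaling the log2 ratio was 0.39 for Cct3, 0.19 for Cct7, 0.51 for Tcp1, 0.43 for Hsp90ab1, 0.62 for Hsp90aa1, 0.44 for Hspbap1, 0.47 for Hsph1 and 0.64 for Dnaja4. Under quantile normalization it was 0.30 for Cct3, 0.27 for Cct4, 0.15 for Cct7, 0.081 for Cct8, 0.55 for Tcp1, 0.38 for Hspa9, 0.49 for Hsp90ab1, 0.70 for Hsp90aa1, 0.12 for Hspa5, 0.999 for Hspbap1, 0.80 for Hsph1 and 0.67 for Dnaja4. Under a common sum it was 0.30 for Cct3, 0.086 for Cct7, 0.43 for Tcp1, 0.33 for Hsp90ab1, 0.55 for Hsp90aa1, 0.44 for Hspbap1, 0.36 for Hsph1 and 0.63 for Dnaja4. At a pseudocount of 5 it was 0.054 for Hsph1 and 0.057 for Dnaja4. With a library left out, ratios ran from −1.80 to 0.13 for Cct3, −2.14 to 0.21 for Cct7, −1.29 to 0.0022 for Tcp1, −1.88 to 0.55 for Hspa9, −1.53 to 0.95 for Hsp90ab1, −1.03 to 0.050 for Hsp90aa1, −1.25 to 0.76 for Hspbap1, −1.42 to 0.83 for Hsph1, −0.72 to 1.65 for Dnajb4, −1.63 to 1.47 for Dnaja4, −0.92 to 1.39 for Lonp1 and −0.82 to 2.82 for Cdc37l1. Within these ranges, with the genes tested held fixed, the sign also turned for Hspbap1 (0.058), Hsph1 (0.021), Hsp90ab1 (0.12) and Dnaja4 (0.73) without NP replicate 2, Dnaja4 (0.56) without NP replicate 1, Lonp1 (−0.024) without P replicate 1 and Dnajb4 (−0.26) without P replicate 2. The cause of these changes was not tested.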
